A study of Mus musculus with 9 samples.

Results

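The transcripts described here are those of 10 genes of the interleukin-6 (IL-6), STAT3 and NF-kB signalling pathways in mouse liver. They are the receptor genes Il6ra, Il6st, Osmr, Lifr and Il1r1, the transcription factor gene Stat3, and the feedback genes Socs3, Nfkbia, Nfkbiz and Tnfaip3. They were picked by symbol from the 25781 genes of the deposited table, and each of the 10 symbols had 1 entry. RNA sequencing covered livers of Swiss mice aged 10 to 12 weeks in 3 groups of 3 libraries. The first group received sodium selenite (Na2SeO3) at 50 µg/kg with β-CYP at 40 mg/kg, the second received β-CYP at 40 mg/kg, and the third was the control. The series concerns selenium in liver injury, with β-CYP as the injuring agent per its design text. What β-CYP stands for, the sex of the mice and the time after dosing are not in the labels, and no group got selenite alone. Nor do the labels tie each library to a mouse of its own, so a p-value here weighs a difference against library-to-library spread that could be technical.

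IL-6 binds its receptor, the product of Il6ra, and the complex then recruits gp130, the signalling chain encoded by Il6st. Oncostatin M and leukaemia inhibitory factor use Osmr and Lifr together with gp130. JAK kinases bound to these chains phosphorylate STAT3, which in hepatocytes switches on acute phase protein genes and Socs3, whose product in turn shuts off gp130 and JAK signalling. The IL-1 receptor Il1r1 works with the accessory chain Il1rap and signals through MyD88 to NF-kB. NF-kB induces its own brakes, among them Nfkbia, which encodes the cytoplasmic inhibitor IκBα, and Tnfaip3, which encodes the ubiquitin-editing enzyme A20. Nfkbiz encodes the nuclear protein IκBζ, which works with NF-kB on a second set of inflammatory genes.

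Values are scaled counts, that is, reads divided by a factor of each library that is part of the deposited values. The factor was worked out from the smallest nonzero value of each library. Libraries held 32084480 to 33056400 reads with selenite plus β-CYP, 32052250 to 36029560 with β-CYP and 28630269 to 35821336 in the control. The 10 genes had 90 to 16613 reads in a library, with Osmr and Tnfaip3 the lowest. Hepatocyte markers summed to 3207280 to 3260320 scaled counts with selenite plus β-CYP, 3931120 to 4037300 with β-CYP and 3464580 to 3613610 in the control, as a liver label calls for. Control replicate 2 stood apart from the other control libraries, with 1805976 reads of the rRNA-like transcript AY036118 against 43988 and 42232. Without that control library, the 10 genes kept their sides of the threshold against the control, except Nfkbiz and Tnfaip3 in selenite plus β-CYP, as given with those genes. All 3 selenite plus β-CYP libraries stood apart in 11 pancreatic acinar markers, which summed to 33623 to 34993.5 scaled counts there, 1158 to 1234 with β-CYP and 983 to 1157 in the control. Of these 11, 11 passed as higher with selenite plus β-CYP against β-CYP and against the control. The part of pancreatic tissue in the differences of that group was not tested. Tests are those of limma on log2(scaled count + 1), with p adjusted over all 20145 genes in the fit and called below 0.05. All 10 genes were tested. Differences are log2 values with the standard error of the model (n = 3 libraries per group), and for genes with few reads they come out smaller than the true change.

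With β-CYP against the control, 7 of the 10 genes rose and 2 fell. The risers were Il1r1, Socs3, Osmr, Nfkbiz, Stat3, Tnfaip3 and Il6ra, while Lifr and Nfkbia fell. Il6st did not pass. Among all genes tested, 16.3% passed in this comparison, 7.72% higher and 8.58% lower. The median log2 difference was 0.80 over the 10 genes and -0.001 over all genes. The counts of 7 and 2 were obtained under every one of the 20 alternatives tried, including the omission of each library in turn.

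Set against β-CYP alone, selenite plus β-CYP had 6 of the 10 genes lower and 1 higher. Socs3, Nfkbiz, Il6ra, Tnfaip3, Stat3 and Il1r1 were lower, Lifr was higher, and Il6st, Osmr and Nfkbia did not pass. Of all genes, 23.9% passed, 11.6% higher and 12.3% lower, so a lower call was common in the background too. The median difference was -0.35 over the 10 genes and 0.02 over all genes. Scaling every library to the same total of reads moved the median of all genes to 0.14 in this comparison, with 3238 genes higher and 1334 lower in place of 2337 and 2468. Under that scaling 4 of the 10 genes were lower and 1 higher, since Il1r1 and Tnfaip3 no longer passed.

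Between selenite plus β-CYP and the control, 5 of the 10 genes were higher with selenite plus β-CYP, 2 were lower and 3 did not pass. Il1r1, Osmr, Socs3, Stat3 and Nfkbiz were higher, and Lifr and Nfkbia were lower. Il6ra, Il6st and Tnfaip3 did not pass. The share of all genes that passed was 28.9%, with 14.4% higher and 14.5% lower. The median difference was 0.25 over the 10 genes and 0.03 over all genes. Equal totals moved the median of all genes to 0.16 and the split to 3977 higher and 1763 lower, in place of 2908 and 2915, with 5 of the 10 genes higher and 1 lower. The 3 comparisons share their libraries in pairs, so their values are given side by side and not as independent evidence.

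**Figure D1:**
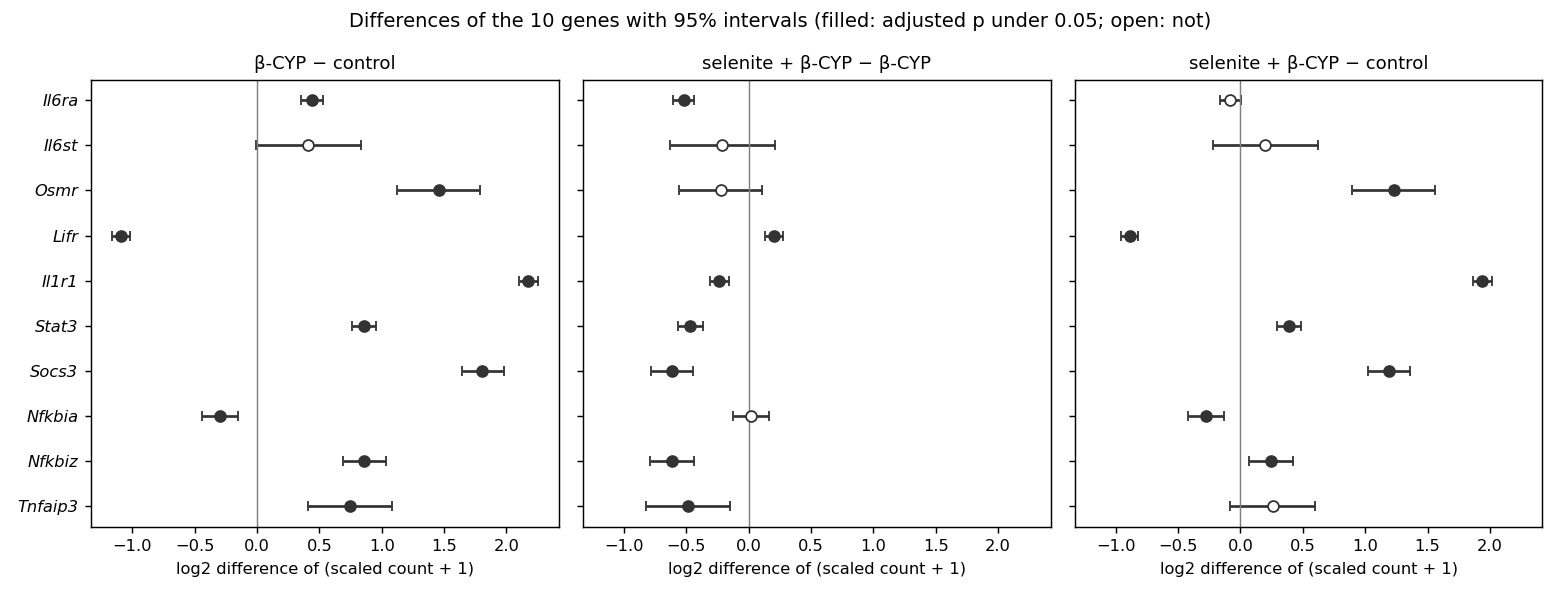
Log2 differences of the 10 genes in the 3 comparisons, on the scale of log2(scaled count + 1), with 95% intervals of the limma model (3 libraries per group). Filled points passed the threshold. Lifr lies left of 0 in both comparisons with the control, whereas Il1r1 lies farthest right of the 10 in both.

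Among the receptors, Il6ra, the ligand-binding chain for IL-6, had 3144, 3298 and 3362 scaled counts in the selenite plus β-CYP libraries, 4782, 4610 and 4687 with β-CYP, and 3507, 3548 and 3324 in the control. The β-CYP libraries were the highest 3 of the 9, and the other groups overlapped each other. Il6ra was 1.36-fold higher with β-CYP than in the control (log2 difference 0.44 ± 0.04, adjusted p = 3.55e-05). Selenite plus β-CYP brought 0.696 times the β-CYP level (-0.52 ± 0.04, adjusted p = 6.7e-06). The difference between selenite plus β-CYP and the control was -0.08 (95% interval -0.17 to 0.004, adjusted p = 0.147). Its sign turned under equal totals and quantile normalization, and it passed as lower with equal medians (adjusted p = 0.0364). The exons of Il6ra overlap by 242 bases with Gm42809 on the other strand in the GENCODE annotation. Without a stated strand setting, reads of that stretch cannot be told apart.

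Il6st, the gp130 chain shared by the whole cytokine family, had 9112, 9670.4 and 6123 scaled counts with selenite plus β-CYP, 9312, 9415 and 9585 with β-CYP, and 5407, 8089 and 8172 in the control. Selenite replicate 3 and control replicate 1 lay far below the other libraries of their groups, while the β-CYP libraries lay close together. The highest library was 1.58 times the lowest with selenite plus β-CYP, 1.03 times with β-CYP and 1.51 times in the control. Of the 3623 genes with a mean of at least 1000 scaled counts, 2.93% spread at least that far in selenite plus β-CYP and 3.45% in the control. Counting error was 0.977% to 1.37% in the 9 libraries. Against the control, the log2 difference was 0.41 ± 0.19 for β-CYP (95% interval -0.01 to 0.83, adjusted p = 0.191) and 0.20 ± 0.19 for selenite plus β-CYP (adjusted p = 0.49). Without control replicate 1 these were 0.21 and 0.002, so the size of both depended on that library. The second also depended on the selenite libraries, at 0.40 without selenite replicate 3 and 0.07 without selenite replicate 2. The difference between selenite plus β-CYP and β-CYP was -0.21 ± 0.19 (adjusted p = 0.49), or -0.01 without selenite replicate 3.

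Osmr, the chain that makes gp130 responsive to oncostatin M, had 309, 276 and 284 scaled counts with selenite plus β-CYP, 298.5, 406 and 319.8 with β-CYP, and 139, 129.8 and 103 in the control. All 6 libraries that had received β-CYP were above all 3 control libraries. Osmr was 2.74-fold higher with β-CYP (log2 difference 1.46 ± 0.15, adjusted p = 0.000103) and 2.34-fold higher with selenite plus β-CYP (1.23 ± 0.15, adjusted p = 0.000166) than in the control. Selenite plus β-CYP and β-CYP overlapped and differed by -0.23 (95% interval -0.56 to 0.10, adjusted p = 0.33). Leaving out β-CYP replicate 2, the highest library, brought that value to -0.10.

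Lifr, which pairs with gp130 for leukaemia inhibitory factor, moved the other way. It had 8758, 9039 and 8835 scaled counts with selenite plus β-CYP, 7449, 7708 and 7990 with β-CYP, and 16083, 16722 and 16492 in the control. No groups overlapped, and the control libraries were the highest. Lifr fell to 0.469 times the control level with β-CYP (log2 difference -1.09 ± 0.03, adjusted p = 1.22e-08) and to 0.54 times with selenite plus β-CYP (-0.89 ± 0.03, adjusted p = 2.33e-08). Between the treated groups it was 1.15-fold higher with selenite plus β-CYP (0.20 ± 0.03, adjusted p = 0.000958). That last value was 0.33 under equal totals and 0.44 under quantile normalization.

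Il1r1, the signalling receptor for IL-1, showed the greatest difference from the control of the 10 genes. It had 5999, 5875 and 5996 scaled counts with selenite plus β-CYP, 6918, 7036 and 7089 with β-CYP, and 1621, 1504 and 1537 in the control. The control libraries lay far below the other 6, and the treated groups did not overlap either. Il1r1 was 4.51-fold higher with β-CYP (log2 difference 2.17 ± 0.03, adjusted p = 1.83e-10) and 3.83-fold higher with selenite plus β-CYP (1.94 ± 0.03, adjusted p = 2.55e-10) than in the control. Between selenite plus β-CYP and β-CYP the difference was -0.24 ± 0.03 (adjusted p = 0.000727). That call was lost under equal totals (-0.11, adjusted p = 0.279) and quantile normalization (-0.04, adjusted p = 0.44).

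**Figure D2:**
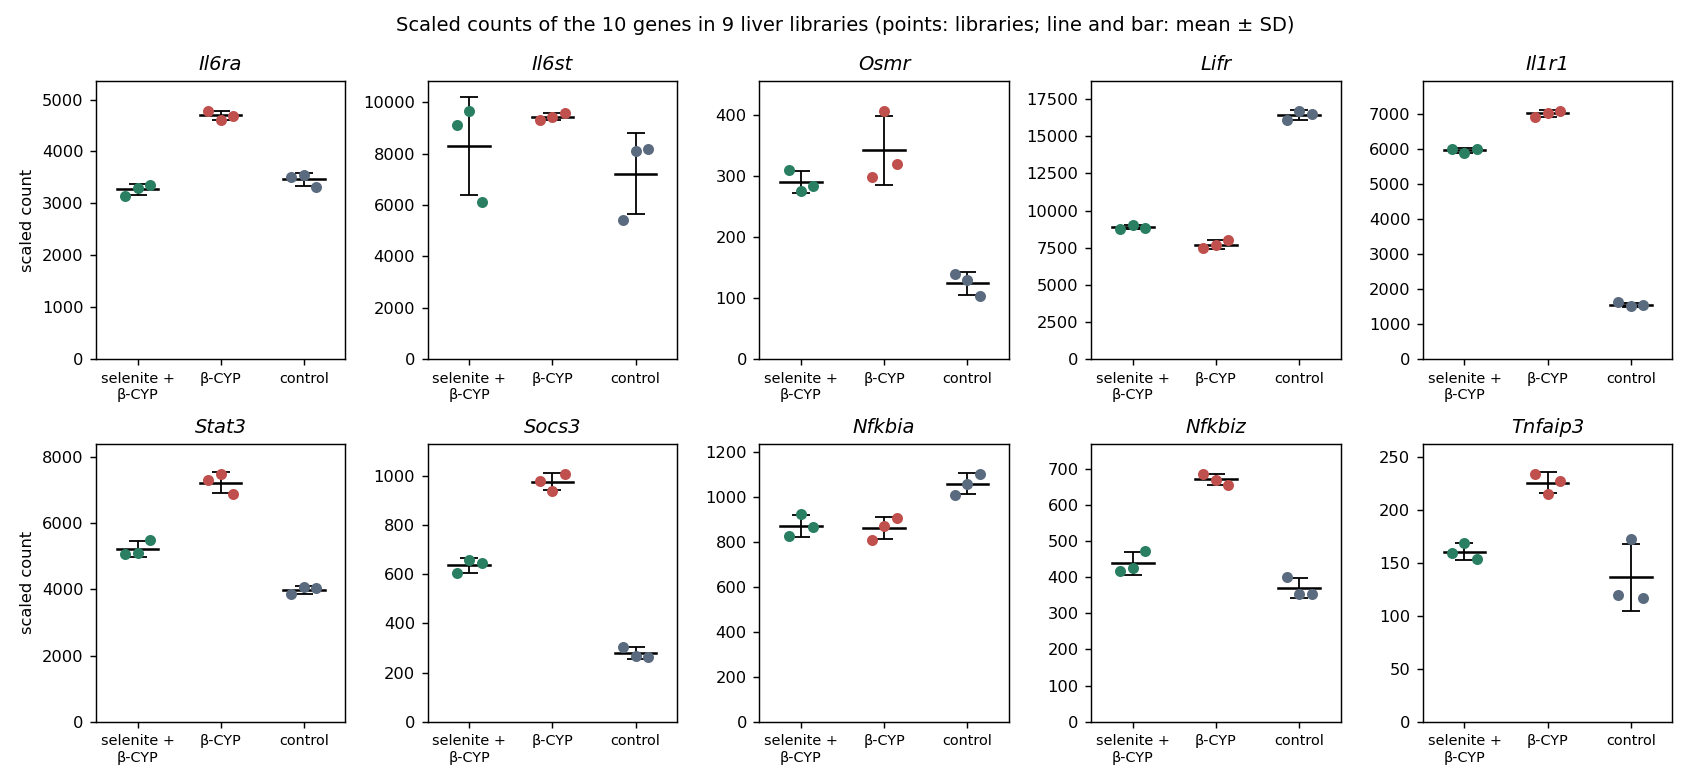
Scaled counts of the 10 genes in each library, for selenite plus β-CYP, β-CYP and control from left to right in each panel, with each axis starting at 0. Points are libraries, and lines with bars are means ± SD (n = 3). Il1r1, Stat3, Socs3, Nfkbiz, Tnfaip3 and Il6ra are highest in β-CYP, with no overlap with the other groups, whereas Lifr is highest in the control.

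Stat3, the transcription factor that carries the signal of gp130 to the nucleus, had 5066, 5115 and 5491 scaled counts with selenite plus β-CYP, 7309, 7507 and 6882 with β-CYP, and 3856, 4075 and 4039 in the control. The 3 groups did not overlap, with selenite plus β-CYP between the others. Stat3 was 1.81-fold higher with β-CYP than in the control (log2 difference 0.86 ± 0.04, adjusted p = 8.45e-07). Selenite plus β-CYP stood at 0.722 times the β-CYP level (-0.47 ± 0.04, adjusted p = 3.98e-05, or -0.30 under quantile normalization) and 1.31-fold above the control (0.39 ± 0.04, adjusted p = 0.000119). Its exons share 72 bases with Stat5a on the other strand. Stat5a averaged 407 ± 13.4, 495 ± 23.2 and 408 ± 41.1 scaled counts in selenite plus β-CYP, β-CYP and control (SD, n = 3), below Stat3 in every group.

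Socs3, the feedback inhibitor of gp130 signalling, had 603, 658 and 646 scaled counts with selenite plus β-CYP, 978, 939 and 1009 with β-CYP, and 305.5, 268 and 262 in the control. The groups again did not overlap and stood in the same order as for Stat3. Socs3 was 3.5-fold higher with β-CYP than in the control (log2 difference 1.81 ± 0.07, adjusted p = 1.79e-07). Selenite plus β-CYP lay at 0.652 times the β-CYP level (-0.62 ± 0.07, adjusted p = 0.000229) and 2.28-fold above the control (1.19 ± 0.07, adjusted p = 1.8e-06).

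The promoters of the inducible feedback genes and of Il1r1 are shown because Socs3 is a known target of STAT3, Nfkbia and Tnfaip3 are known targets of NF-kB, and Il1r1 differed most from the control. The table of RefSeq promoters (GRCm38.p6) matched 9 of the 10 genes by symbol, with 12 promoters in all. Nfkbiz was not among them. The 250 bases before each annotated start were searched on both strands for TTCNNNGAA, the core of a STAT site, for GGNNNTTCC, a core form of a kB site, and for the NF-kB consensus by name. The kB motifs overlap where both match. The motifs were settled after several forms had been tried. In the sequences, given 5′ to 3′ on the strand of the gene, capitals mark the matches.
Socs3 (chr11:117969367-117969616, minus strand): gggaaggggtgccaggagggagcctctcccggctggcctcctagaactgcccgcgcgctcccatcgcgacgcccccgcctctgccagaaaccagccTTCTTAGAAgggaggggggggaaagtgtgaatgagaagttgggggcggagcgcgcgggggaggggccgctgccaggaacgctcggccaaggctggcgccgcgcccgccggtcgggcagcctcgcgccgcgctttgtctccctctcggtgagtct
Nfkbia (chr12:55492648-55492897, minus strand): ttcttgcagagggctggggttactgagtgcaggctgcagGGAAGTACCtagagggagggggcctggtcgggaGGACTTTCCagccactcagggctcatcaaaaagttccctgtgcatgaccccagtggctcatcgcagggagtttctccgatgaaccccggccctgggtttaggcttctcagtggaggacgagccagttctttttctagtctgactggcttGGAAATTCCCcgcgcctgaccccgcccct
Tnfaip3 (chr10:19015411-19015660, minus strand): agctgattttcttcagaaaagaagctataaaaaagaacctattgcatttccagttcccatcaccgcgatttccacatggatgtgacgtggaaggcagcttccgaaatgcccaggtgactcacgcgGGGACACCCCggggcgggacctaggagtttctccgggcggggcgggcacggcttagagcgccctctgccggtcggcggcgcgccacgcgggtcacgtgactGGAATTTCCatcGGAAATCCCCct
Il1r1 (chr1:40266336-40266585, plus strand, the downstream of its 2 starts in the table): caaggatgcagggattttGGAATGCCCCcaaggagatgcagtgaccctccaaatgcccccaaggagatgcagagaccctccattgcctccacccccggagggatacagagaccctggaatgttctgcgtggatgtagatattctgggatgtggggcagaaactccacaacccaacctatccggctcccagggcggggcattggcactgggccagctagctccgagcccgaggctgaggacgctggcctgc

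Counting back from the annotated start, the Socs3 window held TTCTTAGAA at -154 to -146. This STAT core occurred in 7.02% of the 32851 promoters of the table and in none of the other 11 windows of the 10 genes. Nfkbia held 3 kB cores, at -211, -178 and -29, the last of which also fell within a match to the NF-kB consensus. Tnfaip3 held 2 cores, at -24 and -12, and 2 consensus matches, at -125 and -12. The other Tnfaip3 window held 1 core. The Il1r1 window shown held 1 core within a consensus match at -232, and its other window held none. Stat3 held 2 cores and no consensus match. The core occurred in 15.7% of all promoters and the consensus in 3.9%. None of the 3 motifs matched in the windows of Il6ra, Il6st, Osmr and Lifr. A match describes the letters of these windows only.

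Of the NF-kB feedback genes, Nfkbia, which encodes IκBα, had 825, 924 and 869 scaled counts with selenite plus β-CYP, 810.2, 869.9 and 906 with β-CYP, and 1012, 1059.9 and 1105 in the control. The treated groups overlapped and lay below the control. Nfkbia fell to 0.814 times the control level with β-CYP (log2 difference -0.30 ± 0.06, adjusted p = 0.0114). For selenite plus β-CYP the difference from the control was -0.28 ± 0.06 (adjusted p = 0.00929), a call lost under equal totals (-0.14, adjusted p = 0.201). Between the treated groups it was 0.02 (95% interval -0.13 to 0.16, adjusted p = 0.899), and its sign depended on the scaling and on single libraries.

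Nfkbiz, which encodes the nuclear cofactor IκBζ, had 416, 424 and 473 scaled counts with selenite plus β-CYP, 686, 669 and 655 with β-CYP, and 401, 353 and 353 in the control. The β-CYP libraries stood clear of the other 6. Nfkbiz was 1.82-fold higher with β-CYP than in the control (log2 difference 0.86 ± 0.08, adjusted p = 4.66e-05) and at 0.653 times the β-CYP level with selenite plus β-CYP (-0.615 ± 0.08, adjusted p = 0.000306). Selenite plus β-CYP lay above the control by 0.25 ± 0.08 (adjusted p = 0.0399). This last call was lost in 12 of 20 alternatives, among them the omission of any of 7 libraries, with adjusted p of 0.0149 to 0.125 over the alternatives. Without control replicate 2 it was 0.22 (adjusted p = 0.113).

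Tnfaip3, which encodes A20, had the fewest reads of the 10 in both treated groups, with 159, 169 and 153 scaled counts in selenite plus β-CYP, 234, 214 and 227 with β-CYP, and 119, 172 and 117 in the control. Control replicate 2, the library that stood apart, was the high one of its group and reached into the range of selenite plus β-CYP. Tnfaip3 was 1.68-fold higher with β-CYP than in the control (log2 difference 0.75 ± 0.15, adjusted p = 0.00793). Selenite plus β-CYP was lower than β-CYP (-0.49 ± 0.15, adjusted p = 0.0434). That call was lost in 9 of 20 alternatives, among them the omission of any of the 6 libraries compared, with adjusted p of 0.00759 to 0.119. Selenite plus β-CYP differed from the control by 0.26 ± 0.15 (adjusted p = 0.247), or by 0.44 without control replicate 2 (adjusted p = 0.0191).

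Ratios of reads between a pair of genes of 1 library do not depend on the scaling. They are not corrected for gene length, so they compare groups and do not give the proportion of the paired transcripts. Lifr over Osmr averaged 30.7 ± 2.26 with selenite plus β-CYP, 23 ± 3.46 with β-CYP and 135 ± 22.8 in the control (SD, n = 3). Its lowest control library (116) was above the highest treated one (32.8). Il1r1 over Il1rap, the 2 chains of the IL-1 receptor, averaged 1.52 ± 0.04 with selenite plus β-CYP, 1.52 ± 0.04 with β-CYP and 0.281 ± 0.008 in the control. The control libraries lay at 0.272 to 0.287, and both treated groups at 1.48 to 1.56. Socs3 over Stat3 averaged 0.122 ± 0.006, 0.135 ± 0.011 and 0.0699 ± 0.0081 in selenite plus β-CYP, β-CYP and control, with overlap between the treated groups. Nfkbiz over Nfkbia averaged 0.503 ± 0.043, 0.780 ± 0.063 and 0.350 ± 0.041 in the same groups, with no overlap between any of them. Tnfaip3 over Nfkbia averaged 0.184 ± 0.008, 0.262 ± 0.023 and 0.129 ± 0.030, again with no overlap.

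**Figure D3:**
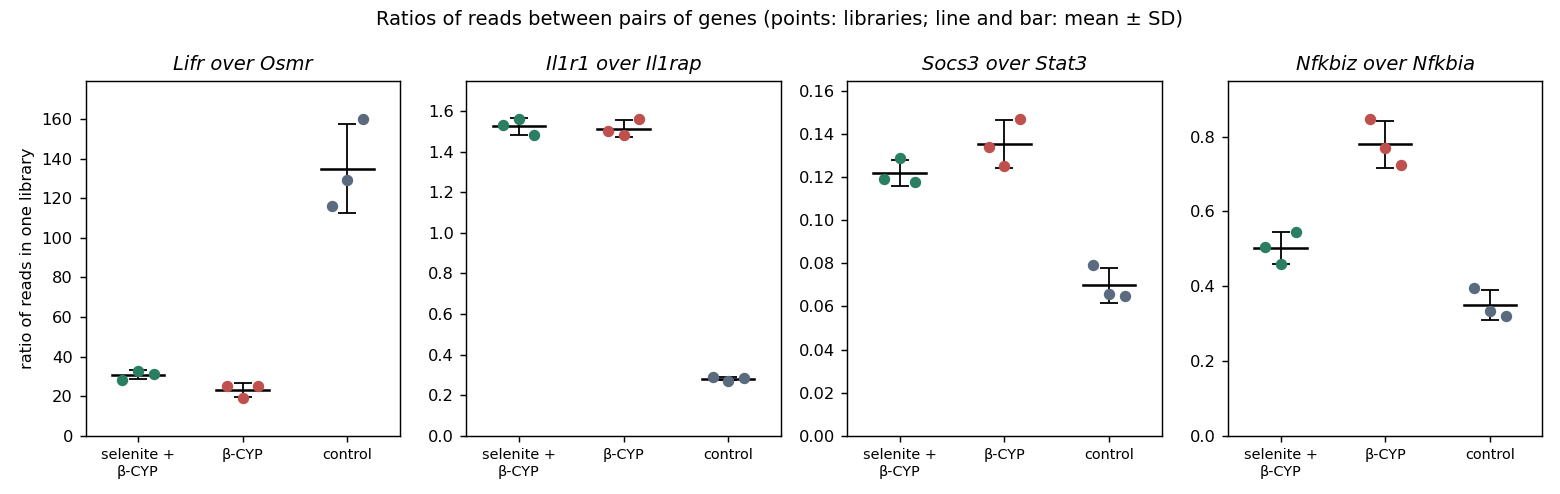
Ratios of reads between 4 pairs of genes in each library, for selenite plus β-CYP, β-CYP and control from left to right, with axes from 0. Points are libraries, and lines with bars are means ± SD (n = 3). Lifr over Osmr is at least 116 in the control libraries and at most 32.8 in the others, and Il1r1 over Il1rap is at most 0.287 in the control and at least 1.48 elsewhere.

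Levels between genes were compared as scaled counts per kb of exon, from the exon lengths of GENCODE. In the control the order was led by Lifr (1525 ± 30.02), followed by Nfkbia (658 ± 29.0), Il6st (651 ± 142), Stat3 (419 ± 12.3), Il6ra (400 ± 13.8) and Il1r1 (244 ± 9.5). Socs3 (96.3 ± 8.2), Nfkbiz (73.5 ± 5.4), Tnfaip3 (18.8 ± 4.3) and Osmr (10.2 ± 1.5) came last. Nfkbia overlapped Il6st there, and Stat3 overlapped Il6ra. In selenite plus β-CYP and in β-CYP, Il1r1 came first, at 936 ± 11.2 and 1102 ± 13.8 per kb, without overlapping the next gene in either group. Lifr came second with selenite plus β-CYP (824 ± 13.5), overlapping Il6st (748 ± 172), and after Stat3 with β-CYP (716 ± 25.1), where its libraries overlapped those of Stat3 (759 ± 33.5). Osmr and Tnfaip3 held the last 2 places in every group, with overlapping libraries in both treated groups. The sources used here do not give the authors' annotation, so lengths may differ from those they counted.

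The genes around these 10 were taken from 10 pathway lists with 140 symbols. Of them 137 were in the table and 136 were tested, and the other 3, IL-6 family ligands, were not analysed here. With β-CYP against the control, 45 rose and 16 fell, where 7.72% of all genes tested passed as higher and 8.58% as lower. Between selenite plus β-CYP and β-CYP, 26 rose and 34 fell, or 36 and 18 under equal totals, against 11.6% higher and 12.3% lower over all genes. Against the control, 58 rose and 20 fell with selenite plus β-CYP, against 14.4% higher and 14.5% lower over all genes, so the lower calls were near that share. These shares are the background of each list count that follows. Each list count uses the deposited scaling and was not recomputed under the alternatives. The lists were written with earlier results of these data known, and no list was tested as a whole.

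None of the 7 tested ligand genes passed with β-CYP against the control or with selenite plus β-CYP against β-CYP. Osm, the ligand of Osmr, had 4.6, 4.6 and 0 scaled counts with selenite plus β-CYP and 0 in all 6 other libraries. Lif, a ligand of Lifr, had 0 in each selenite plus β-CYP library, 0, 0 and 2.8 with β-CYP, and 3, 0 and 3.4 in the control. Ctf1, which encodes cardiotrophin-1, had 41.4, 43.4 and 24 scaled counts with selenite plus β-CYP, 57.2, 50 and 86.9 with β-CYP, and 77.9, 86.6 and 75.4 in the control. It was the only listed ligand to pass, as lower with selenite plus β-CYP than in the control (log2 difference -1.16 ± 0.28, adjusted p = 0.0113).

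Of the 14 other receptors that signal to JAK and STAT, 0 rose and 4 fell with β-CYP against the control. These were Cntfr (-0.89), Il11ra1 (-0.73), the growth hormone receptor Ghr (-0.45) and the prolactin receptor Prlr (-0.40). Set against β-CYP, 5 rose and 2 fell with selenite plus β-CYP, and the 2 of 14 lower were near the 12.3% of all genes. Cntfr, a receptor chain for ciliary neurotrophic factor, rose by 1.43, the leptin receptor Lepr by 1.35 and Il22ra1, a chain of the IL-22 receptor, by 1.14, while Prlr stood at -0.69 and Ghr at -0.53. Against the control 7 rose and 3 fell with selenite plus β-CYP. Ghr averaged 8382 ± 115 scaled counts with selenite plus β-CYP, 12131 ± 163 with β-CYP and 16542 ± 404 in the control (SD, n = 3).

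Of 10 JAK kinases and other STATs, 3 rose and 1 fell with β-CYP against the control, with Jak1 at 0.26 and Jak3 at 0.59 among those that rose. Stat4, the one that fell, had 2 reads in all β-CYP libraries together, against 24 in the control. Between selenite plus β-CYP and β-CYP 2 rose and 3 fell, with Jak3 at -0.48. Against the control 2 were higher and 2 lower with selenite plus β-CYP, with Jak1 at 0.15 ± 0.04 (adjusted p = 0.0105).

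The other inhibitors of JAK-STAT signalling did not follow Socs3 in one direction. Of 15, 2 rose and 2 fell with β-CYP against the control, near the 7.72% and 8.58% of all genes. Socs2, a feedback inhibitor of growth hormone signalling, had 119.7, 145.7 and 124.6 scaled counts with selenite plus β-CYP, 23.9, 24.5 and 39.7 with β-CYP, and 242.8, 231.5 and 244.6 in the control. The 3 groups did not overlap, with β-CYP lowest. Socs2 fell by 3.02 on the log2 scale with β-CYP against the control (± 0.20, adjusted p = 4.86e-06) and rose by 2.14 with selenite plus β-CYP against β-CYP (adjusted p = 3.55e-05). Socs3 over Socs2 reads averaged 4.91 ± 0.35 with selenite plus β-CYP, 34.9 ± 8.3 with β-CYP and 1.16 ± 0.09 in the control. Cish, another SOCS family member, averaged 53.5 ± 4.9, 115 ± 13.02 and 257 ± 14.5 scaled counts in the same groups. The phosphatase genes Ptpn1 and Ptpn2 rose by 0.90 and 0.59 with β-CYP. They were at 0.10 and -0.12 between selenite plus β-CYP and β-CYP, where neither passed.

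Of 12 STAT3-responsive regulators, 5 rose and 3 fell with β-CYP against the control, with a median log2 difference of 0.28. Junb rose by 1.03, Cebpd by 0.73 and the kinase gene Pim1 by 0.65, while Myc was at -1.18 and Pim3 at -0.54. For selenite plus β-CYP against β-CYP 0 rose and 6 fell, with a median of -0.28. They included Pim3 (-1.09), Cebpb (-0.94), Junb (-0.83) and Cebpd (-0.63). Cebpb had 1077, 1134.5 and 1167 scaled counts with selenite plus β-CYP, below the control. Its β-CYP libraries (2015, 2227 and 2230) overlapped the control (2076, 2063.5 and 2043.5). Junb, a subunit of AP-1, averaged 694 ± 2.5 scaled counts with selenite plus β-CYP, 1235 ± 39.3 with β-CYP and 603 ± 13.8 in the control (SD, n = 3). Against the control 4 were higher and 4 lower with selenite plus β-CYP.

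Of 20 STAT3-responsive secreted proteins, 18 rose and 0 fell with β-CYP against the control, with a median log2 difference of 0.98. All 20 rose with selenite plus β-CYP against the control, with a median of 1.13. Between selenite plus β-CYP and β-CYP, 8 rose and 8 fell. Among those that fell there, Lbp, the lipopolysaccharide-binding protein, was at -0.88 and the siderophore-binding Lcn2 at -0.74. Among those that rose, the iron hormone gene Hamp was at 1.14 and the fibrinogen chain gene Fga at 0.34. Hamp had 15368, 16213 and 16208 scaled counts with selenite plus β-CYP. Its β-CYP libraries (7103, 7369 and 7195) were not above the control (7401, 7497 and 7529.5). Saa3, a serum amyloid A gene, averaged 2057 ± 60.3 scaled counts with selenite plus β-CYP, 1396 ± 34.7 with β-CYP and 87.2 ± 37.7 in the control. Timp1, an inhibitor of matrix proteases, had 51.6, 45.2 and 31.6 scaled counts with selenite plus β-CYP, 89.4, 62.3 and 83.2 with β-CYP, and 0 in each control library. Socs3, Stat3 and Il6ra were lower with selenite plus β-CYP than with β-CYP, while the secreted proteins were split there.

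Upstream of NF-kB, 6 of 22 genes of IL-1, TNF and Toll-like signalling rose and 3 fell with β-CYP against the control. Myd88, the adaptor of Il1r1, rose by 1.121 ± 0.08 and the TNF receptor gene Tnfrsf1a by 1.11 ± 0.04. Il1rn, the secreted IL-1 receptor antagonist, averaged 355 ± 68.1 scaled counts with selenite plus β-CYP, 211 ± 45.7 with β-CYP and 71.5 ± 10.0 in the control. It passed as higher in all 3 comparisons, with log2 differences of 1.53 with β-CYP against the control, 0.75 with selenite plus β-CYP against β-CYP and 2.28 with selenite plus β-CYP against the control. Il1r2, the decoy receptor, had 12.9, 18.4 and 20.1 scaled counts with selenite plus β-CYP, 18.7, 16.3 and 7.4 with β-CYP, and 3, 0 and 3.4 in the control. Il1rap, the accessory chain of Il1r1, was at -0.26 ± 0.04 with β-CYP against the control (adjusted p = 0.000788), while Il1r1 rose. Between selenite plus β-CYP and β-CYP 3 rose and 6 fell, and against the control 10 rose and 3 fell with selenite plus β-CYP. The 3 of 22 in each were near the 11.6% of all genes higher in the first and the 14.5% lower in the second. Tnf had 12, 17.5 and 21.1 scaled counts with selenite plus β-CYP, 2.1, 0 and 2.8 with β-CYP, and 0, 5 and 0 in the control. It passed as higher with selenite plus β-CYP against β-CYP (adjusted p = 0.0249) and against the control (adjusted p = 0.0129), on few reads. The IL-1 gene Il1b had 104, 101.5 and 146.6 scaled counts with selenite plus β-CYP, 59.3, 39.8 and 63.8 with β-CYP, and 43.5, 20.1 and 60.6 in the control. It passed only against the control, with selenite plus β-CYP higher by 1.59 ± 0.37 (adjusted p = 0.0101).

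Of 8 genes for NF-kB subunits and IkB kinases, 3 rose and 0 fell with β-CYP against the control. These were Nfkb2 (0.96), Relb (0.80) and Rela (0.41). Relb rose by 0.72 with selenite plus β-CYP against β-CYP, where Nfkb2 was at -0.40 and Rela, at -0.03, did not pass. Of the 16 genes listed as other inhibitors of NF-kB signalling, 6 rose and 1 fell with β-CYP against the control. With selenite plus β-CYP against β-CYP, 0 rose and 5 fell. The list does not separate inhibitors from nuclear IκB family members that work with NF-kB. Bcl3, a nuclear IκB family member like Nfkbiz, had 897.7, 1080.1 and 1083.8 scaled counts with selenite plus β-CYP, 2155.1, 2139.1 and 1961.4 with β-CYP, and 710.2, 809.3 and 685.7 in the control. The β-CYP libraries were highest, as for Nfkbiz. Bcl3 rose by 1.505 ± 0.09 with β-CYP (adjusted p = 2.3e-06) and was at -1.03 ± 0.09 with selenite plus β-CYP against β-CYP (adjusted p = 2.11e-05). Zc3h12a, a ribonuclease that degrades inflammatory mRNAs, was at 1.09 and -0.80 in those comparisons. Tnip2, which encodes an A20-binding protein, rose by 1.41 with β-CYP and was at -0.18 between selenite plus β-CYP and β-CYP, where it did not pass.

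Of 14 tested NF-kB-responsive genes, 4 rose and 2 fell with β-CYP against the control. Cxcl1, a neutrophil attractant, averaged 1497 ± 4.2 scaled counts with selenite plus β-CYP, 4151 ± 109.5 with β-CYP and 558 ± 21.6 in the control. Set against β-CYP alone, selenite plus β-CYP had 7 higher and 2 lower. Cxcl1 was at -1.47 ± 0.04 there, whereas the chemokine genes Ccl5 and Cxcl10 rose by 1.95 and 1.60 and the anti-apoptotic Birc3 by 1.09. Against the control 8 rose and 1 fell with selenite plus β-CYP. Relb and Nfkb2 are counted in this list and among the subunits.

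**Figure D4:**
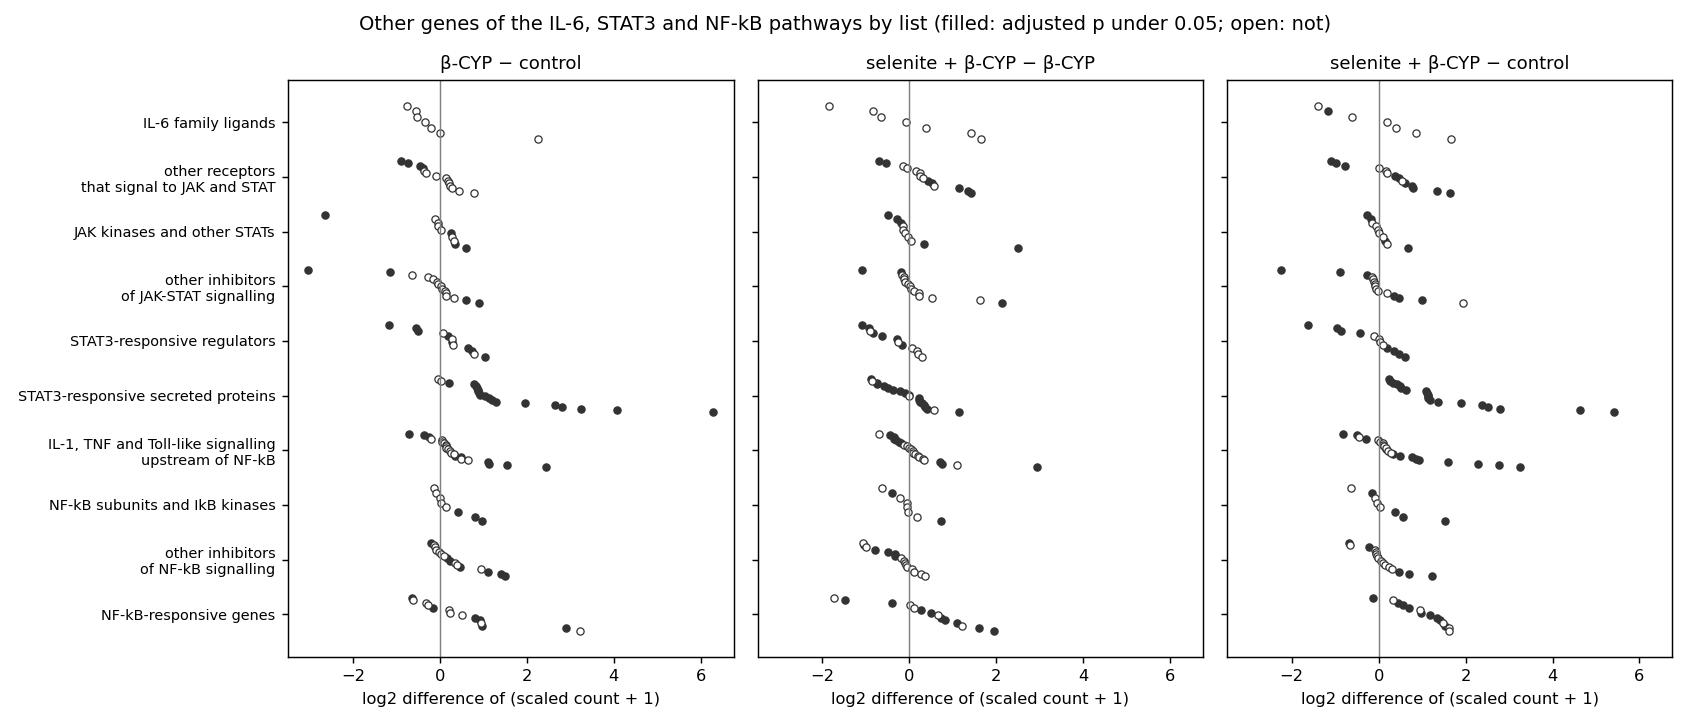
Log2 differences of the other pathway genes by list, on the scale of log2(scaled count + 1), in the 3 comparisons. Each point is 1 tested gene, filled where it passed. Nearly all secreted STAT3-responsive proteins lie right of 0 in both comparisons with the control, and the point farthest right there is Timp1, whose fitted value rests on 0 reads in the control and is no measure of its fold.

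Bulk liver holds several cell types, and fewer cells of a type cannot be told apart from less RNA per cell. Neutrophil markers (12 genes) summed to 844 to 954 scaled counts with selenite plus β-CYP, 576 to 655 with β-CYP and 171 to 191 in the control, where Ly6g was at 0. Of the 11 tested, 6 rose and 0 fell with β-CYP against the control. Kupffer cell and macrophage markers (12 genes) summed to 20261 to 20415, 16454 to 16855 and 15933 to 16576 in the same groups, with 7 of 12 higher and 0 lower with selenite plus β-CYP against β-CYP. Of the 11 hepatocyte markers 0 rose and 10 fell in that comparison. Stellate cell markers (10 genes) summed to 10868 to 11237, 10009 to 10463 and 9184.5 to 9358, and sinusoidal endothelial markers (10 genes) to 12774 to 12987, 13043 to 13127 and 13413 to 13615. Lymphocyte markers (12 genes) summed to 508 to 553, 477 to 498 and 298 to 391, with Ms4a1 at 0 in β-CYP. Cholangiocyte markers (7 genes) summed to 1931 to 2067, 6537 to 6896 and 2262 to 2445. Of that sum Spp1, which encodes osteopontin, averaged 1723 ± 54.6, 6476 ± 163 and 2211 ± 81.8. Of the pancreatic acinar markers, Cpa1, Cpb1, Pnlip, Prss2, Cela3b and Try4 were at 0 in every β-CYP and control library, and Clps in every control library. The part of these cell types in the differences of the 10 genes was not tested.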

How the data were processed

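The authors deposited 1 table of log2 values for 25781 genes in 9 libraries. HISAT, Cufflinks and the build mm9 are named, with no versions or roles, per the submitters' processing notes, and the sources used here give neither the counting tool and its strand setting nor the annotation. Libraries were made from Trizol-extracted total RNA with a TruSeq kit, per the labels' protocols. The design text names an Illumina HiSeq instrument and the protocol a BGISEQ one. The deposited log2 values equal log2(reads divided by a library factor, plus 1). Undoing this gave whole reads, within 0.02, for 100% of values in all 9 libraries.

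Scaled counts were tested with limma 3.58.1 in R 4.3.3: 1 fit of 3 group means to log2(scaled count + 1), with an intensity trend, two-sided, Benjamini-Hochberg adjusted over the 20145 genes with a mean of at least 1, at a threshold of 0.05. The fit was tested on simulated counts with the same dispersion for every gene and no outlying library, so that test covers only such a setting. The members, lists and tests were chosen with earlier results of these data known. Named besides the 10 genes were up to 4 passing genes of largest change per list and comparison, any ligand, subunit, JAK or STAT, and genes a comparison of values turned on. Some of these, such as Ghr, Pim3, Il1rap, Fga and Stat5a, were added after their values were seen. Some listed genes are not reported here. Alternatives were 4 other scalings, other pseudocounts (0.1 and 10), other filters, 2 groups only, voom on the recovered reads (3247, 4924 and 5840 genes passing in the comparisons of β-CYP with control, selenite plus β-CYP with β-CYP, and selenite plus β-CYP with control), a replicate block and the omission of each library. No pair of libraries of a group agreed within sampling noise. Exon lengths and overlaps came from GENCODE M21 (GRCm38), by gene identifier. Counting error is the Poisson error of the reads and covers no other source. Sequences were read with Python 3.11.15 and plots drawn with matplotlib 3.10.9.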

Additional observations from a re-analysis of the deposited data

How the results depend on the processing

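Each of the 30 pairs of a gene and a comparison was recomputed under 20 alternatives, 9 of which leave out 1 library. In 22 pairs the direction and the side of the threshold were the same throughout. The other 8 are named here or with their genes. The sign turned for Il6st between selenite plus β-CYP and β-CYP under quantile normalization (0.034), and for Nfkbia between the same groups with equal medians (-0.016), without β-CYP replicate 1 (-0.026) and without selenite plus β-CYP replicate 2 (-0.024). It also turned for Il6ra between selenite plus β-CYP and the control under equal totals (0.054) and quantile normalization (0.014). None of these passed. The cause was not tested. Leaving out 1 library gave 2668 to 3218 genes passing for β-CYP against the control, 3969 to 4774 for selenite plus β-CYP against β-CYP and 4994 to 5691 for selenite plus β-CYP against the control, with 9 to 9, 6 to 7 and 6 to 7 of the 10 genes. The replicate block gave 2956, 4481 and 5506 genes and 9, 6 and 6 of the 10, in the same order. It lost Tnfaip3 between selenite plus β-CYP and β-CYP (adjusted p = 0.058) and Nfkbiz between selenite plus β-CYP and the control (adjusted p = 0.0701). Libraries with the same number did not deviate together (r of -0.04 to 0.07 over 9 pairs, against -0.07 to 0.07 over 18 pairs of other numbers). That gave no sign of pairing by number, but with 3 libraries per group it cannot settle whether the samples were paired. Counting error was largest for Osmr and Tnfaip3, at 5.01% to 10.5% per library. The spread between libraries exceeded it in places, at 16.7% for Osmr with β-CYP and 23% for Tnfaip3 in the control (SD over mean, n = 3).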
